A study of Mus musculus with 35 samples.

Results

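Matrix proteases and their inhibitors were followed through the cell populations of the embryonic mouse brain as 10 listed genes. These were 5 matrix metalloproteinases (*Mmp2*, *Mmp9*, *Mmp11*, *Mmp14*, *Mmp15*), 3 tissue inhibitors of metalloproteinases (*Timp1*, *Timp2*, *Timp3*) and 2 proteases with thrombospondin motifs (*Adamts1*, *Adamts9*). They were taken by name from a bulk table of 53465 genes, and all 10 were found in it. All 10 passed the filter on low values in the bulk libraries, and 8 of 10 had enough transcripts to be tested in the single wells.

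The bulk data covered 12 libraries of wild-type mouse brains at E14.5. Each of 3 brains, taken from the number in the label, gave 1 FACS-sorted library of neural, of mural and of endothelial cells and 1 of microglia, and values are given in 1 order of brains throughout. A library is named by a prefix for its population (N, Mu, Ec or Mi) and its brain, such as Mu-346 for mural cells. The neural libraries were made with the TruSeq kit and the other 9 with SMART-Seq v4 and Nextera XT, so kit and population cannot be told apart in any comparison with neural cells. The single-cell data came from the same stage and were made with mCEL-Seq2, which counts transcripts at their 3′ end by molecular identifiers. There were 3 wild-type plates (plates 1 to 3) with a sort gate for each well, and 3 plates of Mof knockout brains (plates 4 to 6), of which plate 4 is described here. The labels give the knockout by its genotype only, with no sort gate for its wells, and give neither strain nor allele.

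Matrix metalloproteinases (MMPs) are zinc-dependent endopeptidases that are secreted or held at the cell surface as inactive precursors and, once activated, cut collagens, laminins, proteoglycans and other proteins outside the cell. Tissue inhibitors of metalloproteinases (TIMPs) bind the active enzymes and block them, and ADAMTS proteases are secreted relatives that mainly cut proteoglycans and procollagens. Around growing vessels these enzymes are known for remodelling the basement membrane that endothelial and mural cells share. Transcript levels say nothing of enzyme activity, which depends on activation and inhibition of the protein.

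*Mmp14*, *Mmp15*, *Timp3* and *Adamts9* were correlated over the 12 bulk libraries, and each had its lowest mean in microglia. The order of the other populations differed between them. *Mmp15* was highest in neural, *Timp3* in mural and *Adamts9* in endothelial libraries. The Pearson r of log2(normalized count + 1) lay between 0.88 and 0.96 for each of their 6 pairs, as a description over libraries that share brains and populations. Their promoters are shown for that reason, from RefSeq on GRCm38.p6. Each stretch starts 250 bases before the RefSeq start site and stops before that site, or before the first exon annotated in GENCODE vM21 where that lies upstream. Capitals mark GC boxes, which are the letters GGGCGG on either strand.
Mmp14, chr14:54431348-54431597, plus strand: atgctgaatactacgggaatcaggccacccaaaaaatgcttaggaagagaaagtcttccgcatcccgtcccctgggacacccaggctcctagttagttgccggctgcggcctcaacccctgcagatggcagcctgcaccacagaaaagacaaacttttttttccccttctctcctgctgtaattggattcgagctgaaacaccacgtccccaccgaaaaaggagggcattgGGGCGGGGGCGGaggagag
Mmp15, chr8:95352046-95352267, plus strand: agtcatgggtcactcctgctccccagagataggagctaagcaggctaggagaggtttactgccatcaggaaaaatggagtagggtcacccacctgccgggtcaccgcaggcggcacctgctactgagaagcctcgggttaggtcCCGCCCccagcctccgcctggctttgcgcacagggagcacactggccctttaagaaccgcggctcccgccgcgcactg
Timp3, chr10:86300162-86300371, plus strand: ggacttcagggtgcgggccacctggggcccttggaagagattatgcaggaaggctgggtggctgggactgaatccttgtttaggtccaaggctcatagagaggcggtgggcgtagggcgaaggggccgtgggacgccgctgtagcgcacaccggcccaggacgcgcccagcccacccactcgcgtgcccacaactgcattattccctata
Adamts9, chr6:92943535-92943784, minus strand: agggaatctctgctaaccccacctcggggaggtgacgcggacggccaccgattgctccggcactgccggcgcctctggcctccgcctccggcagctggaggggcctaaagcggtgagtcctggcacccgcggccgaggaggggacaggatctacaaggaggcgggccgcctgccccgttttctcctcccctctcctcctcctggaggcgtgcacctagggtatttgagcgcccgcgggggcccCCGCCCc
RefSeq promoters were found for 8 of the 10 members, all but *Mmp2* and *Mmp9*. Within the full 250 bases before the start site, a GC box stood in 8 of these 8 promoters, against 32.7% of all 32851 promoters in the table. In *Mmp14* 2 GC boxes that do not overlap began 19 and 13 bases before the start site, and in *Mmp15* the only one began 106 bases before it. The only GC box of *Timp3* began 15 bases before the start site, past the printed stretch, and that of *Adamts9* began 7 bases before. The letters TGANTCA, which AP-1 factors bind, stood in 0 of the 8 promoters and in 6.75% of all of them. The letters TATAAA stood in 1 of the 8, in *Adamts1*, and in 12.4% of all. All 3 motifs were searched on both strands, and a match is a description of letters only.

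The libraries carried the markers of their labels. The summed normalized count of 9 mural markers was 708558 to 765890 in mural libraries and at most 7141 in the others, and that of 9 microglia markers was 335513 to 366638 in microglia and at most 1401 elsewhere. Mural libraries also held 6 of 6 fibroblast markers, at a sum of 8873 to 11803 against at most 269.8 in any other library, and smooth muscle markers at 716 to 1109. Neural markers summed to 34222 to 63101 in mural libraries, 16529 to 17599 in endothelial and at most 9143 in microglia libraries, against 133881 to 143831 in neural ones. Most of the mural sum came from *Fabp7*, with a mean of 26942 against 7602 in neural libraries, and *Sox11*, with 18062 against 38699, while the neuronal markers *Dcx* and *Tubb3* averaged 489 and 1109 against 34247 and 31995. Erythroid markers summed to 12168 to 32942 in endothelial libraries and at most 401.8 in mural ones. Microglia libraries held 5 of 5 markers of border macrophages at 14920 to 18717 and neutrophil markers at 1627 to 2972, and their sum of immediate early genes was 468076 to 676304 against at most 200930 elsewhere. The part of these in the results was not tested. Reads on genes ran from 17638358 to 98414914 per library. In bulk samples fewer cells of a type and less RNA per cell cannot be told apart.

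*Mmp9* was the member that differed most between populations and was a mural transcript. *Mmp9* encodes gelatinase B, a secreted MMP that cuts gelatin and type IV collagen of the basement membrane (ENSMUSG00000017737, chromosome 2, 164940780 to 164955850, plus strand). The mural libraries held normalized counts of 35235, 36160 and 62279. Neural libraries held 16.02, 16.6 and 20.1, endothelial libraries 0, 0 and 69.4, and microglia 20.2, 1.19 and 52.9. Every mural library thus stood far above every other library, while the other 3 populations overlapped. Per kilobase of exon, mural *Mmp9* averaged 12590.5 ± 4338 normalized counts (SD, n = 3), which made it the gene of rank 63 among 25828 genes above 0. On the log2(normalized count + 1) scale, limma put mural cells above neural cells by 11.18 ± 1.56 (SE, adjusted p = 0.000128), above endothelial cells by 13.35 (adjusted p = 0.000102) and above microglia by 11.63 (adjusted p = 0.000146). With 1 library left out, the difference from microglia, the next population by mean, ran from 10.31 without Mi-343, which held 1 read, to 12.62 without Mi-346.

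*Mmp11* followed *Mmp9* in being highest in mural cells, with a second level in neural cells. It encodes stromelysin-3, a secreted MMP that furin activates inside the cell (ENSMUSG00000000901, chromosome 10, 75923222 to 75936496, minus strand). Mural libraries held 2941, 1935 and 4830 normalized counts and neural libraries 305.8, 372.7 and 340.8. Endothelial libraries held 8.86, 237 and 88.98, and microglia 64.2, 26.1 and 36.5. Mural libraries stood above neural ones without overlap, and neural ones above both endothelial and microglia libraries, which overlapped. The mural level exceeded the neural one by 3.15 ± 0.93 log2 units (SE, limma adjusted p = 0.0141) and the endothelial one by 5.66 (adjusted p = 0.00105). With brain as a block, endothelial minus neural, at -2.51 log2 units, went from an adjusted p of 0.0377 to 0.0506. Without the mural library Mu-346 the mural difference from neural cells was 2.81 with adjusted p = 0.0518. Exons of *Mmp11* share 155 bases with *Chchd10* on the opposite strand, and whether reads were counted by strand is not given in the sources used here.

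**Figure D1:**
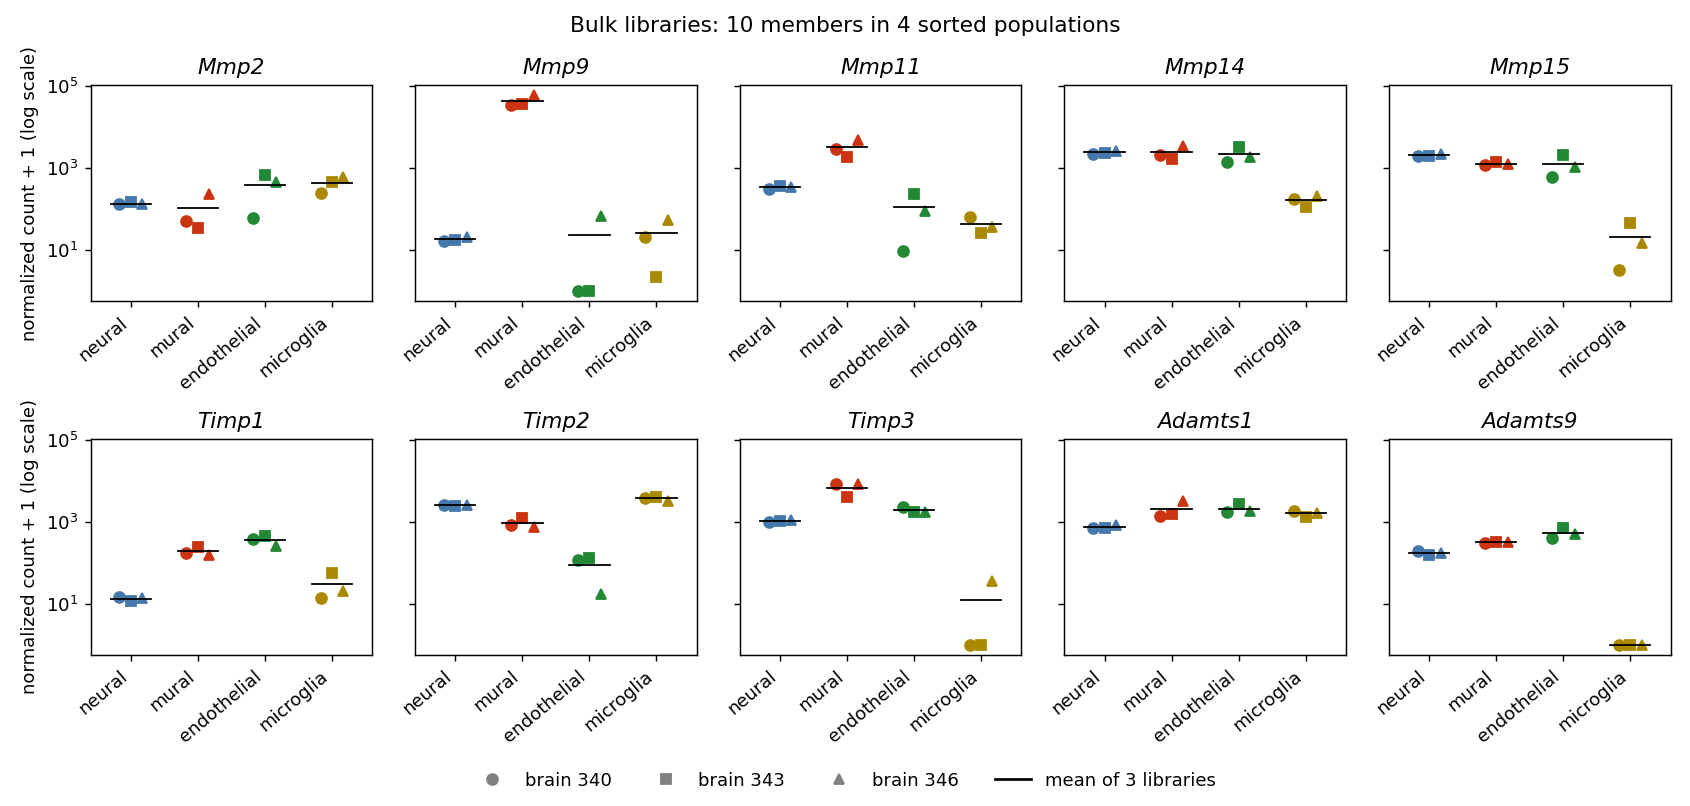
Normalized count + 1 (log axis) of each member in the 12 bulk libraries. Each point is 1 library, its shape gives the brain and the bar is the mean of 3 libraries. *Mmp9* lies between 35235 and 62279 in mural libraries and at most at 69.4 elsewhere, *Adamts9* is at 0 in the 3 microglia libraries, and *Timp2* is lowest in endothelial cells.

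The membrane-bound proteases *Mmp14* and *Mmp15* were shared by neural, mural and endothelial cells and were low in microglia. *Mmp14* encodes MT1-MMP, which cuts fibrillar collagen at the cell surface and activates the MMP2 precursor (ENSMUSG00000000957, chromosome 14, 54431612 to 54445364, plus strand). Its normalized counts were 2288, 2404 and 2652 in neural, 2138, 1653 and 3578 in mural, 1457, 3340 and 1852 in endothelial and 182, 115 and 205 in microglia libraries. The first 3 populations overlapped, and every microglia library lay below all of them. The endothelial level, the lowest of the other 3 means, exceeded microglia by 3.67 ± 0.36 log2 units (SE, limma adjusted p = 1.38e-05). Between mural and neural cells the difference was -0.07 ± 0.36 (adjusted p = 0.897), and its sign changed with the normalization.

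*Mmp15* encodes MT2-MMP, a close relative of MT1-MMP (ENSMUSG00000031790, chromosome 8, 95352268 to 95375080, plus strand). Neural libraries held 2042, 2023 and 2212 normalized counts, mural libraries 1213, 1439 and 1269 and endothelial libraries 611, 2060 and 1092. Microglia held 2.38, 45.1 and 13.8. Neural libraries stood above mural ones without overlap, but the difference of 0.68 ± 0.76 log2 units did not pass the test (limma adjusted p = 0.479). Endothelial cells exceeded microglia by 6.40 ± 0.76 log2 units (adjusted p = 6.31e-05).

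*Mmp2*, which encodes the secreted gelatinase A, varied widely within populations (ENSMUSG00000031740, chromosome 8, 92827291 to 92853420, plus strand). Normalized counts were 131, 147 and 131 in neural, 51.6, 33.1 and 229 in mural, 62.02, 671 and 472 in endothelial and 256, 471 and 608 in microglia libraries. The endothelial library Ec-340 and the mural library Mu-346 stood apart from their groups. Of 6 comparisons only mural minus microglia passed, at -2.49 ± 0.90 log2 units with limma adjusted p = 0.0489. Neighbours in the order microglia, endothelial, neural, mural did not differ beyond their spread.

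*Timp2*, a secreted inhibitor that also takes part in activating the MMP2 precursor on MT1-MMP, had its highest bulk levels in microglia and neural cells (ENSMUSG00000017466, chromosome 11, 118301069 to 118355740, minus strand). Microglia held 3934, 4066 and 3243 normalized counts, neural libraries 2519, 2449 and 2577, mural libraries 818, 1214 and 752 and endothelial libraries 117, 132 and 16.6. No neighbouring populations in that order overlapped. Mural cells exceeded endothelial cells by 3.80 ± 0.61 log2 units (SE, limma adjusted p = 0.000936) and stood below microglia by 2.04 (adjusted p = 0.0222). The difference of 0.57 ± 0.61 between microglia and neural cells did not pass (adjusted p = 0.448), and without the endothelial library Ec-346 its adjusted p was 0.0310. Mural minus neural, at -1.47 ± 0.61, did not pass either (adjusted p = 0.0630), but did with brain as a block (adjusted p = 0.0479).

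*Timp3* encodes the inhibitor that stays bound to the matrix and also blocks several ADAMTS and ADAM proteases (ENSMUSG00000020044, chromosome 10, 86300372 to 86349506, plus strand). Mural libraries held 8237, 4053 and 8234 normalized counts, endothelial libraries 2291, 1712 and 1748, neural libraries 1007, 1034 and 1083, and microglia 0, 0 and 35.2. No neighbouring populations overlapped. Mural cells exceeded microglia by 10.94 ± 1.09 log2 units (limma adjusted p = 1.58e-05), and endothelial cells exceeded microglia by 9.17 (adjusted p = 6.56e-05). The difference of 1.77 ± 1.09 between mural and endothelial cells did not pass (adjusted p = 0.261), nor did the 2.64 between mural and neural cells (adjusted p = 0.0616). Without Mi-346, the only microglia library with *Timp3* reads, the mural to endothelial difference had an adjusted p of 0.00161. Exons of *Timp3* share 1733 bases with *Syn3* on the opposite strand, whose normalized count was at most 331.

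*Timp1*, a secreted inhibitor that binds the MMP9 precursor, was highest in the vascular populations (ENSMUSG00000001131, chromosome X, 20870166 to 20874735, plus strand). Endothelial libraries held 374, 464 and 252 normalized counts, mural libraries 177, 250 and 159, microglia 13.1, 56.9 and 20.1 and neural libraries 13.4, 10.5 and 13.2. Both vascular populations stood above both others without overlap. Endothelial cells exceeded neural cells by 4.73 ± 0.58 log2 units (limma adjusted p = 4.79e-05) and mural cells exceeded microglia by 2.90 (adjusted p = 0.00230). Between endothelial and mural cells the difference of 0.88 ± 0.58 did not pass (adjusted p = 0.295), although the libraries did not overlap.

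*Adamts1*, which cuts aggrecan and versican and is known to restrain vessel growth, was present in all 4 populations and lowest in neural cells (ENSMUSG00000022893, chromosome 16, 85793827 to 85803113, minus strand). Normalized counts were 1795, 2703 and 1872 in endothelial, 1394, 1536 and 3166 in mural, 1877, 1300 and 1678 in microglia and 708, 698 and 832 in neural libraries. The first 3 populations overlapped and the neural libraries lay below them all. The excess over neural cells was 1.10 ± 0.30 log2 units in microglia (limma adjusted p = 0.00839), 1.35 in mural cells (adjusted p = 0.00301) and 1.49 in endothelial cells (adjusted p = 0.00154).

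*Adamts9*, a protease of versican and aggrecan that is expressed in small vessels, was listed at 0 in the microglia of all 3 brains (ENSMUSG00000030022, chromosome 6, 92772699 to 92943492, minus strand). Endothelial libraries held 415, 720 and 493 normalized counts, mural libraries 307, 323 and 322 and neural libraries 195, 156 and 175. No populations overlapped. Against 3 reads per library, a mean of 3.63 normalized counts, the level was at least 149-fold higher in endothelial cells than in microglia, at least 87.3-fold higher in mural cells and at least 48.3-fold higher in neural cells. Endothelial cells exceeded neural cells by 1.59 ± 0.42 log2 units (limma adjusted p = 0.00724), while the 0.73 between endothelial and mural cells did not pass (adjusted p = 0.222). Exons of *Adamts9* share 1381 bases with *A730049H05Rik* and 424 with *Gm15737*, both on the opposite strand, whose highest values were 38.3 and 79.7 normalized counts.

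In counts, 4 of 10 members passed at an adjusted p under 0.05 between mural and neural cells, all higher in mural cells, where limma called 54.6% of 19765 genes. Between endothelial and neural cells 5 passed, 3 of them higher, against 57.7% of all genes. Between microglia and neural cells 6 passed, 1 of them higher, against 59.8%. Among the populations of 1 kit, 3 members passed between mural and endothelial cells, all higher in mural cells, against 27.8% of all genes. Between mural cells and microglia 9 passed, 7 of them higher in mural cells, against 38.0%. Between endothelial cells and microglia 6 passed, 5 of them higher in endothelial cells, against 32.4%. The share of members called was above that of all genes in the comparisons of microglia with the vascular populations, near it in mural minus endothelial and in microglia or endothelial minus neural, and below it in mural minus neural. With a pseudocount of 8, however, 7 members passed in mural minus neural against 55.4% of all genes, which put the members above that share. The median log2 difference of the members was 5.03 in mural minus microglia and 2.11 in endothelial minus microglia, against -0.05 and -0.07 over all genes, and both member medians stayed the same with *Adamts9* set at its bound.

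Levels of different genes were compared per kilobase of exon, as sums over the members. The 5 MMPs summed to 11614, 11468 and 20239.9 normalized counts per kilobase in mural libraries, of which *Mmp9* made 85.7% to 89.1%. The sums were 916 to 1022 in neural, 379 to 1227 in endothelial and 136 to 245 in microglia libraries. The 3 TIMPs differed less between populations, with 1091 to 1421 in mural, 768 to 809 in neural, 503 to 767 in endothelial and 859 to 1108 in microglia libraries. Which TIMP made up the sum differed. *Timp2* made 94.2% to 98.6% of it in microglia and 81.7% to 82.3% in neural cells, *Timp3* made 45.6% to 73.1% in mural cells, and *Timp1* made 56.4% to 68.2% in endothelial cells.

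The ratio of the TIMP sum to the MMP sum per length was 0.122, 0.0951 and 0.0683 in the mural libraries, the lowest of the 4 populations, and 7.56, 6.26 and 3.501 in microglia, the highest. Neural libraries lay between 0.792 and 0.858 and endothelial libraries between 0.625 and 1.93. Without *Mmp9* the mural ratio was 0.523 to 0.873, which overlapped the neural and the endothelial range, while microglia stayed apart at 3.73 to 7.89. These ratios are descriptions of transcripts of the 8 MMP and TIMP members and were not tested. They depend on the list, since other MMPs are left out. Per kilobase, *Mmp8* averaged 116 normalized counts in microglia, *Mmp24* 367 in neural, *Mmp25* 289 in endothelial and *Mmp16* 60.7 in mural libraries.

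**Figure D2:**
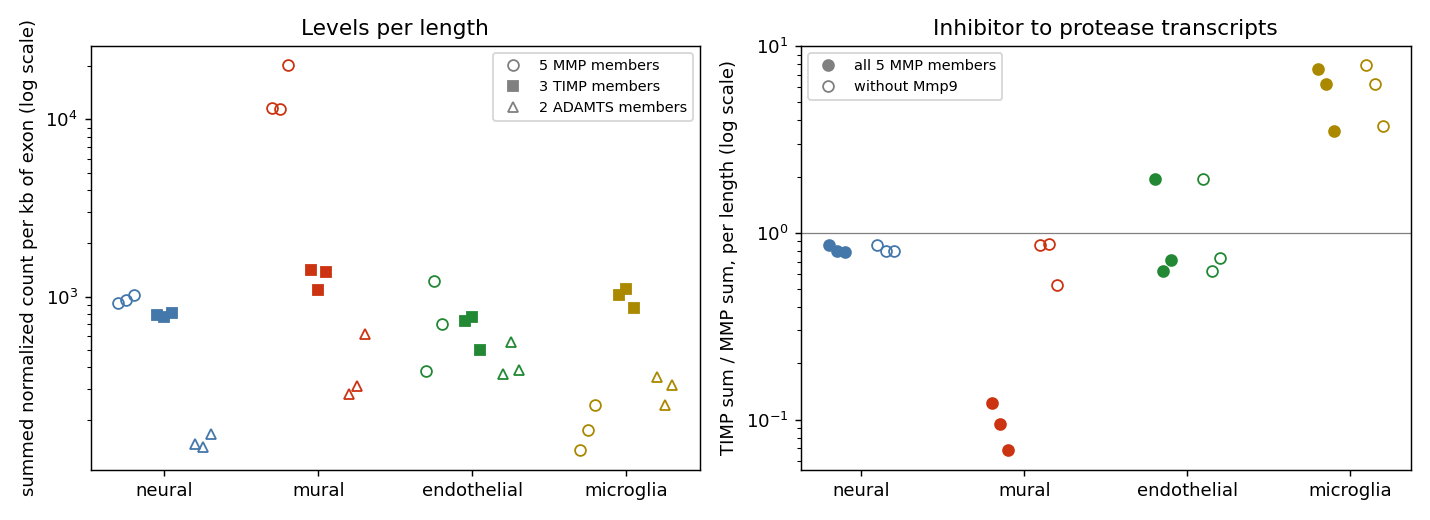
Left, the summed normalized count per kilobase of exon (log axis) of the 5 MMP, 3 TIMP and 2 ADAMTS members in each of 3 libraries per population. Right, the ratio of the TIMP sum to the MMP sum (log axis) with and without *Mmp9*. Mural libraries lie at 0.0683 to 0.122 with *Mmp9* and at 0.523 to 0.873 without it.

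The genes whose pattern over the 12 libraries was most like that of a member were picked by Pearson r among 13137 genes whose normalized count averaged 100 or more. For *Mmp9* these were *Kcnj8* (r = 0.97), a potassium channel subunit used as a pericyte marker, and *Sod3* (r = 0.96), the extracellular superoxide dismutase. For *Mmp11*, *Mapk9*, a stress-activated kinase, had r = 0.97. *Mmp14* was closest to *Kit* and *Obsl1*, *Mmp15* to *Bcar1* and *Agrn*, *Timp3* to *Mid2* and *Fbn2* and *Adamts9* to *Spaca6* and *Tril*, with r of 0.98 or 0.99 for each. *Timp2* was closest to *Tppp* and *Wdr55* and *Timp1* to *1700001C19Rik* and *Ccdc88a* (r between 0.97 and 0.98). *Mmp2* and *Adamts1* had the loosest neighbours, *Myof* and *Colgalt1* with 0.96 and 0.92 and *Surf4* and *Tmed9* with 0.93 and 0.92.

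The single wells gave a second view of the same populations from 3 wild-type plates. Wells with over 1500 transcripts numbered 123 in the neural gate, 210 in the mural gate, 225 in the endothelial gate and 128 in the microglia gate, and plate 3 gave 6 to 14 of them per gate. Mural and microglia wells were pooled in libraries apart from those of neural and endothelial wells on plates 1 and 2, so gate and library are partly tied. In wells of the mural gate *Mmp9* reached 1684, 2145 and 1194 CPM (transcripts scaled to the same total in every sum) on plates 1, 2 and 3. The neural gate held 8.86, 7.10 and 0 CPM, where 0 transcripts allow up to 32.8 CPM, and the microglia gate 11.8, 15.5 and 19.7. The endothelial gate held 69.8, 12.6 and 384.6 CPM. The endothelial *Mmp9* transcripts of plates 1 and 3 were concentrated, with 33 of 67 and 19 of 27 in 1 well each, and in both wells the mural markers were higher than those of the other 3 populations.

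The edgeR quasi-likelihood test on sums per gate and plate put mural *Mmp9* above the neural gate by 7.82 log2 units (adjusted p = 3.14e-14), above microglia by 6.59 (adjusted p = 1.82e-13) and above the endothelial gate by 3.94 (adjusted p = 2.17e-08). At least 1 *Mmp9* transcript was found in 185 of 210 mural wells, or 88.1% (exact 95% binomial interval 82.9 to 92.1), with a median of 12 and a highest value of 78 in those wells. On plates 1, 2 and 3 these were 76 of 95 (80%), 103 of 105 (98.1%) and 6 of 10 mural wells (60%), each outside the pooled interval. The share was 5.69% in the neural gate, 7.11% in the endothelial gate and 14.8% in the microglia gate, whose wells were the deepest and held 1 transcript each. Median depth by plate was 6104 to 7892 transcripts in mural, 4113 to 7915 in neural, 4447 to 7582 in endothelial and 8946 to 10878 in microglia wells. With every well thinned to 1500 transcripts the shares were 73.8% in the mural gate and 1.63%, 4.00% and 2.34% in the neural, endothelial and microglia gates. Intervals of this kind cover counting error only.

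*Mmp11* was found at 168, 172 and 96.1 CPM in the mural gate, against 0, 2.37 and 10.9 in the neural gate, 9.38, 4.71 and 85.5 in the endothelial gate and 0 transcripts in all 128 microglia wells. It was higher in mural than in endothelial wells by 3.66 log2 units (edgeR adjusted p = 8.40e-10). Endothelial minus neural, at 2.41 ± 1.04 log2 units, did not pass (edgeR adjusted p = 0.0639), but did with plate as a block (adjusted p = 0.0363). In bulk the neural libraries were higher than the endothelial ones. The endothelial value of plate 3 was 6 transcripts in 2 of 13 wells, and mural markers were the highest list in 3 of these 13 wells. *Mmp14* stood at 353, 354 and 206 CPM in mural wells, 155, 162 and 85.5 in endothelial, 70.8, 61.5 and 65.7 in neural and 8.88, 1.55 and 19.7 in microglia wells. Here mural wells exceeded neural ones without overlap, by 2.27 ± 0.30 log2 units (SE from the F statistic, adjusted p = 7.57e-09), where the bulk difference did not pass. *Mmp15* was at 53.8, 73.2 and 41.2 CPM in mural wells and at most 21.9 in any other gate and plate, with 0 transcripts in microglia wells. Its mural level exceeded the neural one by 2.05 ± 0.47 log2 units (adjusted p = 0.000337), while in bulk the neural libraries had the higher values. The bulk neural libraries came from another kit, and the part of the kit in these results was not tested.

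Among the inhibitors, *Timp2* was at 183, 194 and 236 CPM in microglia wells, 60.1, 64.96 and 165 in mural, 75.3, 61.5 and 65.7 in neural and 8.34, 1.57 and 14.2 in endothelial wells. Microglia exceeded neural wells by 1.77 ± 0.31 log2 units (adjusted p = 1.82e-06) and endothelial wells lay below every other gate. Mural minus neural was 0.06 ± 0.34 (adjusted p = 0.925), where in bulk the neural libraries had the higher values. *Timp3* reached 305, 302 and 261 CPM in mural wells, 88.6, 119 and 42.7 in endothelial, 28.8, 26.03 and 10.9 in neural and 2.96, 3.11 and 19.7 in microglia wells. Mural wells exceeded endothelial ones by 1.46 ± 0.26 log2 units (adjusted p = 8.04e-06). *Timp1* was sparse, with 15 transcripts in endothelial wells, 6 in mural, 2 in neural and 0 in microglia wells, and was not tested.

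*Adamts1* stood at 165, 122 and 453 CPM in mural wells, 106, 94.3 and 99.7 in endothelial, 34.03, 31.1 and 59.1 in microglia and 11.1, 14.2 and 0 in neural wells. The value of 453 was 33 transcripts in 3 of the 10 wells of plate 3. The other 5 comparisons passed, with mural wells above neural ones by 3.97 ± 0.46 log2 units (adjusted p = 1.47e-10) and above microglia by 2.12 ± 0.36 (adjusted p = 1.32e-06), and endothelial wells above microglia by 1.41 ± 0.37 (adjusted p = 0.00149). In bulk the mural, endothelial and microglia libraries had overlapped. Mural minus endothelial, at 0.72 ± 0.30, did not pass (adjusted p = 0.0861). *Adamts9* was found 27 times in endothelial, 13 times in mural, 8 times in neural and 0 times in microglia wells and was not tested. *Mmp2* was at most 28.5 CPM in any gate and plate, and the 1 comparison that passed was microglia above neural wells by 2.39 ± 0.77 log2 units (adjusted p = 0.00835).

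**Figure D3:**
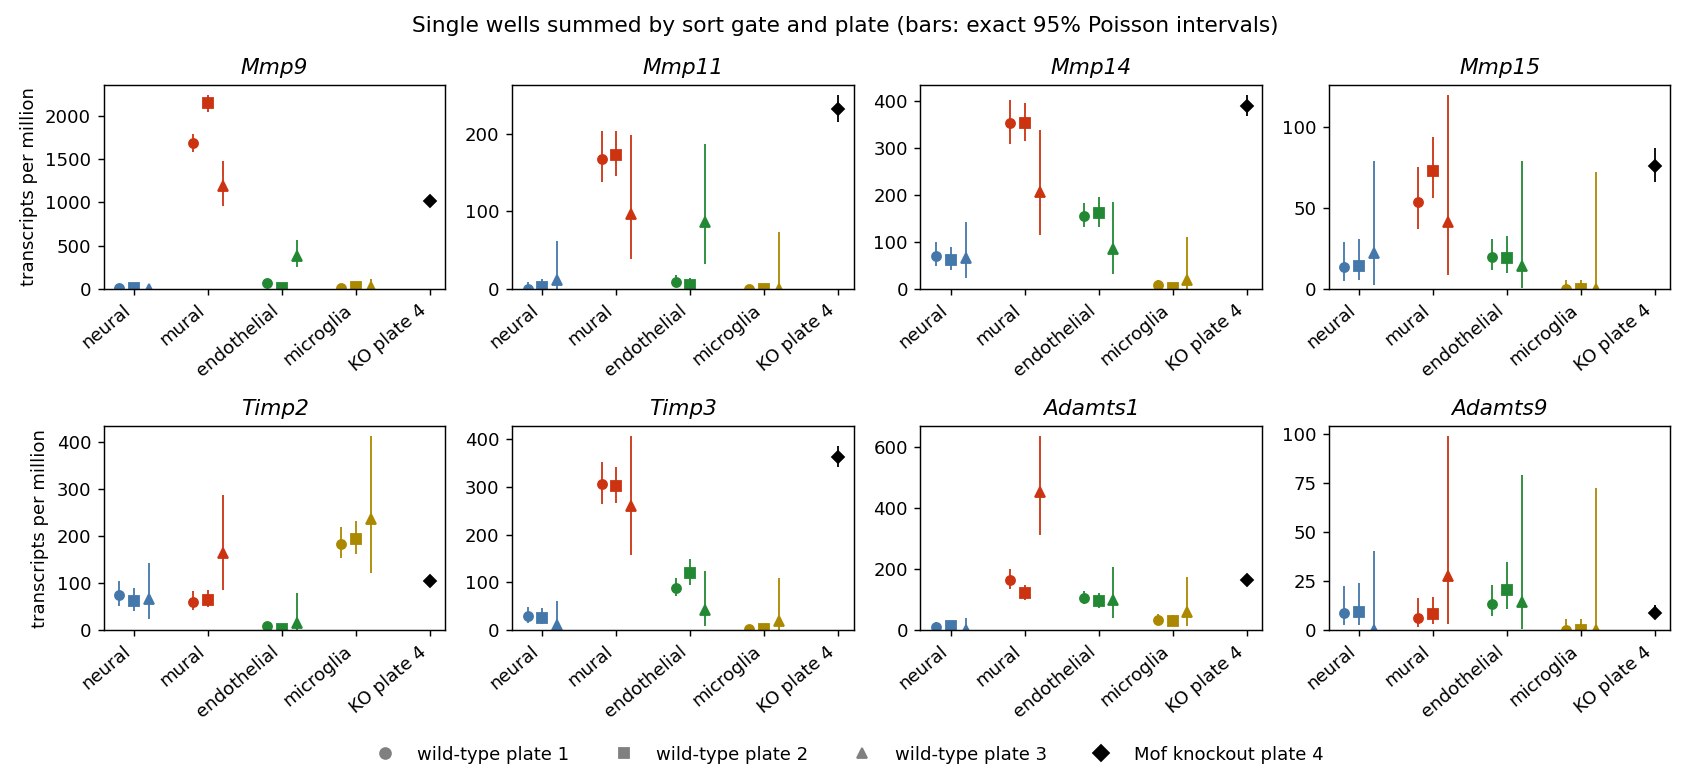
CPM of 8 members in single wells summed by sort gate, with 1 point per wild-type plate, and on Mof knockout plate 4 (diamond, 337 wells without a sort gate). Bars are exact 95% Poisson intervals of the counts and cover counting error only, and each panel has its own axis starting at 0. *Mmp9* lies between 1194 and 2145 in the mural gate and at 1010 on plate 4.

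Of the 8 members tested in wells, 6 passed between mural and neural gates, all higher in mural wells, against 33.1% of 9281 genes. Between endothelial and neural gates 5 passed against 36.4%, and between microglia and neural gates 6 passed against 44.3%. Between mural and endothelial gates 6 passed, all higher in mural wells, against 20.7% of all genes. Between mural and microglia gates 7 passed, 6 of them higher in mural wells, against 37.7%, and between endothelial and microglia gates 7 passed, 6 of them higher in endothelial wells, against 36.2%. With DESeq2 in place of edgeR, 2 members passed between mural and endothelial gates, where 6.91% of all genes passed. Without plate 1, 3 members passed in that comparison against 9.24% of all genes, and 3 in microglia minus neural against 28.5%.

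A mural well held transcripts of a median of 4 members, and between 0 and 8. Of 125 wells with *Timp3*, 117 also had *Mmp9* (93.6%), as had 114 of 120 with *Mmp11*, 151 of 162 with *Mmp14*, 10 of 12 with *Adamts9* (83.3%) and 6 of 8 with *Mmp2* (75%). Of all mural wells 88.1% had *Mmp9*. These shares rise with the depth of a well and are given as a description. In 16 of the 210 mural wells neural markers were the highest of the 4 lists, 14 of them on plate 1, and these held 28.1 CPM of *Mmp9* (3 transcripts) against 122 of *Timp3* and 140 of *Mmp14*.

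**Figure D4:**
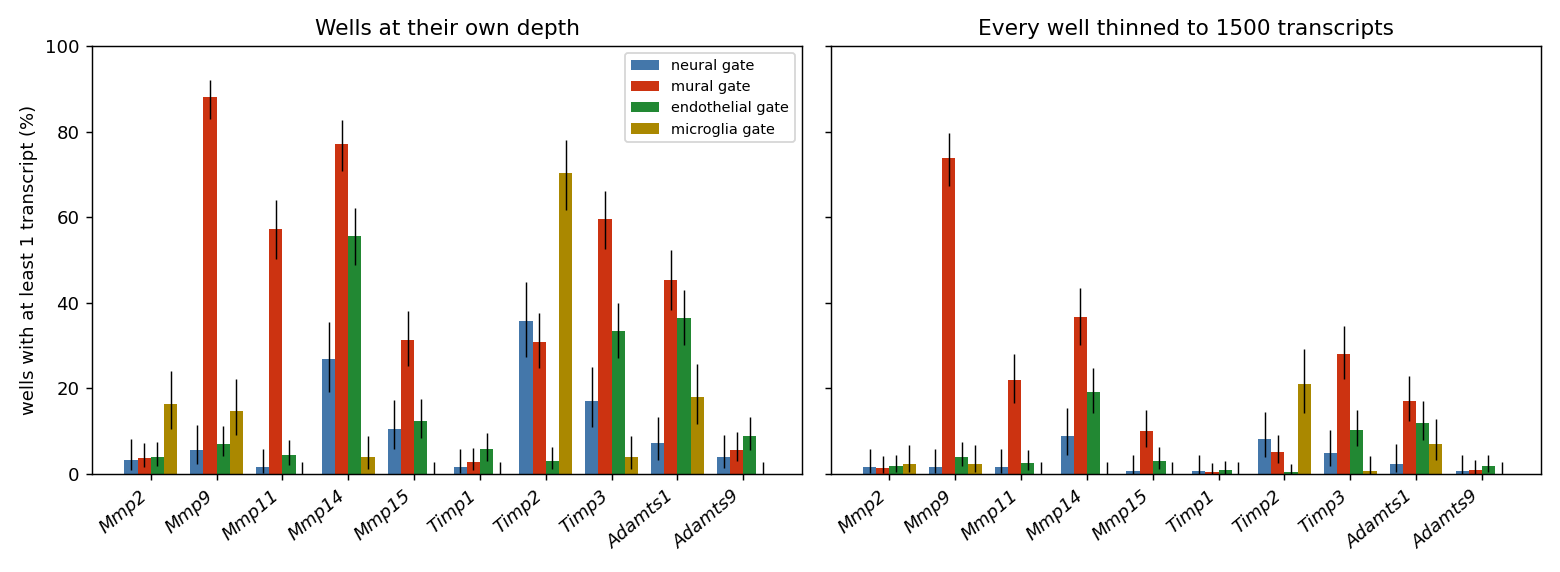
Share of wells with at least 1 transcript of each member by sort gate, over plates 1 to 3, at the wells' own depth (left) and with every well thinned to 1500 transcripts (right). Bars on the columns are exact 95% binomial intervals. In the mural gate *Mmp9* was found in 88.1% of wells at their own depth and in 73.8% after thinning.

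Plate 4 carried cells of Mof knockout brains. MOF is an acetyltransferase of histone H4 encoded by *Kat8*, whose transcript was found at 12.7 CPM on plate 4 (36 transcripts, exact 95% interval 8.89 to 17.6), within the 0 to 18.9 CPM of the mural gate in wild-type wells. Tags at the 3′ end can lie outside a deleted part, so this level checks neither the label nor the deletion. Plate 4 had 337 wells with over 1500 transcripts and a median of 7912. Mural markers were the highest of the 4 marker lists in 276 wells (81.9%) and neural markers in the other 61 (18.1%), with 1 of the 276 close to the limit, under 1.5 times the next list. The summed fibroblast markers were 693 CPM, within the 605 to 874 CPM of the wild-type mural gates. Smooth muscle markers summed to 191 CPM, above the 26.9, 11.8 and 13.7 CPM of the mural gate on plates 1, 2 and 3. In the 276 wells with mural markers highest they summed to 231 CPM. The part of this difference in the levels below was not tested.

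On plate 4 *Mmp9* reached 1010 CPM (exact 95% Poisson interval 974 to 1048), below the 1194 to 2145 CPM of the mural gate on wild-type plates. The 1010 CPM lay within the exact interval of 957 to 1473 of that gate on plate 3. In the 276 wells with mural markers highest *Mmp9* was at 1270 CPM. Wells of the wild-type mural gate chosen in the same way, as an alternative added after seeing the data, held 1934 and 2207 CPM on plates 1 and 2 and 1194 CPM in the 10 wells of plate 3, so 1270 lay below the 2 large plates and within the exact interval of 957 to 1473 of the small one. On plate 4, in the 61 wells with neural markers highest it was 28.7 CPM. The 4 libraries of the plate held 1216, 1056, 912 and 858 CPM of *Mmp9*. *Mmp11* was at 232 CPM (interval 214 to 250), above the wild-type range of 96.1 to 172, and at 287 CPM in the wells with mural markers highest. *Mmp14*, at 391 CPM, *Mmp15*, at 76.2, and *Timp3*, at 364, also lay above the ranges of the mural gate, which were 206 to 354, 41.2 to 73.2 and 261 to 305 CPM. For *Mmp15* this did not hold without library 1 (72.3 CPM) or library 3 (71.3), and 76.2 lay within the exact interval of 56.1 to 93.9 of the mural gate on plate 2. The 391 CPM of *Mmp14* lay within the exact intervals of plate 1 (308 to 402) and plate 2 (315 to 397), and the 364 CPM of *Timp3* within that of plate 3 (157 to 407). *Mmp14* and *Timp3* were nearly as high in the wells with neural markers highest, at 330 and 320 CPM. *Timp2* was at 104 CPM, *Adamts1* at 165, *Adamts9* at 8.82 and *Mmp2* at 4.94, all within the ranges of the mural gate, and *Timp1* was at 8.11 against 0 to 7.91, and at 6.29 or 6.79 without library 2 or 3. *Timp2* was at 217 CPM in the wells with neural markers highest and at 74.0 in those with mural markers highest. With 1 plate of this kind there is no replicate check, and genotype, plate and sort cannot be told apart.

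The wider pathway was described with gene lists. Among 18 other MMPs, 10 passed the filter in bulk. Between mural cells and microglia 2 of the 10 were higher in mural cells and 3 in microglia, and between endothelial cells and microglia 3 were higher and 2 lower, where 38.0% and 32.4% of all genes passed. *Mmp8*, neutrophil collagenase, was at 187, 91.3 and 565 normalized counts in microglia and listed at 0 in the 9 other libraries, where the neutrophil markers also had their highest sum in microglia. *Mmp25*, a membrane-anchored MMP known from leukocytes, was at 193, 2825 and 1576 in endothelial and 112, 228 and 276 in mural cells and listed at 0 in microglia. *Mmp16*, another membrane-type MMP, was at 843, 740 and 883 in neural and 603, 664 and 310 in mural libraries, at most 36.2 in endothelial cells and listed at 0 in microglia. *Mmp28* was highest in endothelial cells at 204, 159 and 268.

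Of 17 other ADAMTS genes, 16 were tested, and 12 were higher in mural cells than in microglia with 0 lower, while 5 were higher and 1 lower in mural than in endothelial cells, where 38.0% and 27.8% of all genes passed. The median log2 difference with genes at 0 set at their bound was 4.43 in mural minus microglia and 1.37 in mural minus endothelial, against -0.05 and 0 over all genes. *Adamts16* was at 356, 614 and 993 normalized counts in mural cells, listed at 0 in endothelial cells, and at most 42.8 elsewhere. *Adamts12* was at 249.06, 697 and 400 in mural and 197, 406 and 193 in endothelial cells and listed at 0 in microglia. *Adamts15* was at 69.5, 144 and 107 in mural cells and listed at 0 in microglia. *Adamts17* was listed at 0 only in endothelial cells, and *Adamts8* was at 88.6, 975 and 199 in endothelial cells and listed at 0 in microglia.

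Among 17 regulators, 6 were higher and 6 lower in mural cells than in microglia, and 5 were higher and 3 lower in mural than in endothelial cells, where 38.0% and 27.8% of all genes passed. *Plat*, the tissue plasminogen activator, was at 16205.6, 16812.5 and 23260.2 normalized counts in mural libraries against 65.4, 48.6 and 55.4 in microglia, a difference of 8.34 ± 0.27 log2 units (limma adjusted p = 8.66e-09). *Reck*, a membrane-anchored inhibitor of MMPs, was higher in mural cells than in microglia by 8.86 ± 0.59 and in endothelial cells by 6.99 ± 0.59. *Spock2*, a proteoglycan that binds proteases and their inhibitors, was highest in endothelial libraries, at 22974.7, 31229.1 and 25212.5, with 2187, 2233 and 2126 in neural and 31.5, 2.28 and 35.7 in mural libraries. *Thbs2*, thrombospondin 2, was at 618, 184 and 799 in mural cells and at most 14.7 elsewhere.

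The 19 substrates of the list were basement membrane proteins, proteoglycans and other matrix proteins. In mural cells 16 were higher than in microglia and 0 lower, with a median difference of 4.87, and in endothelial cells 17 were higher and 0 lower, with a median of 5.52, where 38.0% and 32.4% of all genes passed in either direction. Against neural cells 12 were higher and 4 lower in mural cells, and 12 higher and 4 lower in endothelial cells, where 54.6% and 57.7% of all genes passed. Proteoglycans of the list differed in where they were highest. *Ncan*, neurocan, averaged 16163 normalized counts in neural libraries against 654 in mural and 358 in endothelial libraries, while *Hspg2*, perlecan, averaged 977 in neural, 820.1 in mural and 6907 in endothelial libraries. These 2 genes were chosen after their values were seen. Between mural and endothelial cells 4 substrates were higher and 5 lower, against 27.8% of all genes. *Nid1*, nidogen, was higher in mural cells than in microglia by 13.36 ± 0.49 log2 units and in endothelial cells by 12.34, and *Col4a2*, a chain of type IV collagen, was higher in endothelial cells than in microglia by 10.94 ± 0.35. The laminin chain *Lama2* was at 1457, 1028 and 1474 in mural libraries against at most 24.1 in endothelial ones. The chain *Lama5* was at 480, 961 and 744 in endothelial libraries against at most 70.4 in mural ones, and at 509, 462 and 612 in neural libraries, which overlapped the endothelial ones. Of 11 binding partners 5 were higher and 3 lower in mural than in endothelial cells, against 27.8% of all genes. *Sdc2*, a heparan sulfate proteoglycan, was higher in mural cells by 11.84 ± 0.96, and *Kdr*, a VEGF receptor that TIMP3 can bind, was lower by 6.57 ± 0.36. *Itga3*, an integrin subunit bound by TIMP2, was at 571, 420 and 320 in endothelial cells and listed at 0 in microglia, and *Cd44*, a docking receptor for MMP9, was at 1714, 1599 and 3675 in microglia against at most 45.2 in endothelial cells.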

How the data were processed

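The authors deposited normalized bulk counts of 12 libraries, treated here as a signal on a linear scale, with whole reads recovered. Dividing each library by 1 factor gave whole reads (tolerance 0.01) for 100% of values of at most 100 reads; edgeR on them called 4670 to 11756 genes per contrast. For single wells they deposited estimated counts, corrected for identifiers drawn more than once from a pool of 4096. The submitters' processing notes name mm10, BWA 0.6.2-r126, STAR, featureCounts and DESeq2. Which parameters were used is not given in the sources used here.

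In R 4.3.3, limma 3.58.1 with a variance trend compared bulk populations on log2(value + 1), for genes averaging 10 or more. The spread of a gene was estimated over all populations together, so an SE also reflects populations outside the comparison. Transcripts of wells with over 1500, without spike-ins, were rounded, summed per gate and plate and compared with edgeR 4.0.16 (quasi-likelihood). DESeq2 1.42.0 was an alternative. P-values were two-sided, Benjamini-Hochberg adjusted over all genes. Bulk libraries of 1 number were taken as 1 brain; plates are not stated to be 1 brain each, so their p-values measure the spread between plates. Deviations of same-numbered bulk libraries had a correlation of -0.054 to 0.080. Blocks for brain or plate, pseudocounts, filters, tools and each replicate left out were alternatives. Each well received a single sorted cell, so doublets were not searched for. All libraries of a kind use 1 set of barcodes, and barcodes of no well had a median of 95.0 transcripts. Lengths are merged exons of GENCODE vM21, which held 99.8% of the 53465 genes.

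The members and lists were chosen with earlier results of these data known. Named are the 10 members, *Kat8*, for each pathway list up to 2 genes per contrast among mural, endothelial and microglia cells that passed without overlap of libraries and moved most, and for each member the 2 most correlated genes, of which 1 for *Mmp11* is not reported here. Genes named outside this rule are population markers, genes that overlap a member, or said to be chosen after their values were seen. Proteins were not analysed here. Scripts were tested on simulated data, and Python 3.11.15, scipy 1.17.1, pandas 2.3.3 and matplotlib 3.10.9 were used.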

Additional observations from a re-analysis of the deposited data

Results flagged for a closer look

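Wells sorted as PDGFRβ medium or low, 14 on plate 1 and 9 on plate 2, are in no comparison above. On plate 1 they held *Mmp9* at 153 CPM, *Mmp11* at 38.3, *Mmp14* at 229.7 and *Timp3* at 345, with exact intervals above those of the neural gate of the same plate. On plate 2 they held *Mmp9* at 805 CPM, *Mmp11* at 67.0 and *Timp3* at 184, again above the neural gate there. The *Mmp11* value was 4 transcripts in 1 of the 9 wells. *Mmp14* was at 117 CPM on plate 2, with an exact interval of 47.2 to 242 that overlapped the 40.2 to 90.1 of the neural gate. Mural markers were the highest list in 3 of the 14 and 5 of the 9 wells, and neural markers in the others.

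Plate 6, another plate of Mof knockout cells without a sort gate, held *Mmp9* at 57.5 CPM, *Mmp14* at 179.96, *Timp3* at 91.2 and *Adamts1* at 93.1, each with an exact interval above those of the neural gate on plates 1 and 2. The summed endothelial markers were 4878 CPM on plate 6, against 6982 and 6420 in the endothelial gate of plates 1 and 2. In the neural gate of those plates they were 35.4 and 33.1 CPM. The endothelial gate of those plates held 69.8 and 12.6 CPM of *Mmp9*, 155 and 162 of *Mmp14*, 88.6 and 119 of *Timp3* and 106 and 94.3 of *Adamts1*. These levels were not compared by a test.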

How the results depend on the processing

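Of the alternative values of a member's log2 difference between the 2 populations with its highest bulk means, 192 kept direction and side of the threshold, 8 changed sign, 4 passed newly and 1 no longer passed. The 8 belonged to 3 differences that did not pass. *Mmp14* in mural minus neural was 0.23 with quantile normalization, 0.015 with edgeR and 0.00488 with DESeq2 on whole reads, and -0.38 to 0.18 with 1 library left out. *Mmp2* in microglia minus endothelial was -0.43 to 1.28 with 1 library left out, and *Adamts1* in endothelial minus mural was -0.080 to 0.51. *Timp3* in mural minus endothelial passed with a pseudocount of 8 (adjusted p = 0.0351), and *Adamts9* in endothelial minus mural passed with DESeq2 (0.78, adjusted p = 0.0177). DESeq2 gave no adjusted p for *Mmp9* in bulk.

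The number of members that passed was 7 in bulk mural minus neural with a pseudocount of 8 (55.4% of all genes), against 4 (54.6%). In single wells it was 2 in mural minus endothelial with DESeq2 (6.91% of all genes), against 6 (20.7%). With 1 plate left out it was 3 to 6 there (8.69% to 25.4% of all genes) and 3 to 5 in microglia minus neural (28.1% to 49.2%). Bulk libraries that share a number were taken as 1 brain, although no correlation of their deviations was over 0.1, and plates share only a number, with a correlation of at most 0.081. With brain as a block 5 members passed in bulk mural minus neural (53.3% of all genes) and 4 in endothelial minus neural (56.6%), while plate as a block gave 6 in endothelial minus neural (39.2%). No block changed a count by over 1.5 times, and the calls it changed for *Timp2* and *Mmp11* are given beside their values. The cause of these changes was not tested.

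On knockout plate 4 the level depended on which wells were taken. With mural markers highest *Mmp9* was 1270, *Mmp11* 287 and *Timp2* 74.0 CPM. With neural markers highest, a choice made after seeing the data, it was 1.69 for *Mmp2*, 28.7 for *Mmp9*, 21.9 for *Mmp11*, 330.4 for *Mmp14*, 58.998 for *Mmp15*, 0 for *Timp1*, 217 for *Timp2* and 320.3 for *Timp3*. With 1 of its 4 libraries left out *Mmp9* was 948 to 1054 and *Mmp11* 207 to 252. Thinning lowered the share of wells by more than its interval for 32 pairs of member and gate and by less for 8. Depth limits *Timp1*, *Adamts9* and *Mmp2* in single wells, where no wild-type plate and gate held more than 16 transcripts of any of them.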
